A study of Mus musculus with 8 samples.

Results

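Integrins are paired adhesion receptors of the cell surface, each made of 1 alpha and 1 beta chain, and leukocytes use them to arrest on vessel walls, crawl through tissue and engulf particles. The values below are those of 10 integrin genes typical of leukocytes, taken by symbol from a table of raw read counts for 24062 mouse genes. They are Itgam, Itgb2, Itgal, Itgax, Itga4, Itgb7, Itga5, Itgb1, Itgav and Itgb5. All 10 had a row in the table, and 13197 genes, the 10 integrins among them, passed a filter on low counts and were tested.

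The RNA came from immature myeloid cells (IMCs), grown from the bone marrow of 2-month-old C57BL/6 mice for 3 days in medium with serum and 40 ng/mL M-CSF, the growth factor of the macrophage lineage. There were 4 groups of 2 libraries. PARP1 WT cells carried floxed Parp1 alleles and PARP2 WT cells floxed Parp2 alleles, in both cases without Cre. PARP1CKO and PARP2CKO cells carried the same floxed alleles together with a Cre driven by the lysozyme promoter, which is active in myeloid cells, so that other cells, and myeloid cells that had not recombined, kept an intact gene. Parp1 and Parp2 encode DNA-dependent ADP-ribosyltransferases of the nucleus. The comparisons ask whether loss of either enzyme goes with another level of integrin mRNA, whether the effects of the deletions differ, and whether the control lines differ. The design text calls the libraries biological duplicates, without saying whether each came from its own mouse.

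The libraries held 37852450 to 61845125 counts. Levels are given as CPM, counts scaled to a common library total, after scaling for library composition. Parp1 gave 63.2 and 59.1 CPM in PARP1CKO against 202 and 211 CPM in its controls, for a log2 fold change of -1.75 (SE 0.178, edgeR adjusted p = 0.0134). That call was lost without PARP1 WT library 1 (log2 fold change -1.79, edgeR adjusted p = 0.0753), without PARP1 WT library 2 (-1.73, 0.0650) and without PARP1CKO library 2 (-1.71, 0.0531). Parp2 gave 25.7 and 25.6 CPM in PARP2CKO against 48.2 and 48.3 CPM in its controls, for a log2 fold change of -0.91 (SE 0.0453, edgeR adjusted p = 0.000139). Incomplete deletion and transcripts that outlast the deletion cannot be told apart in these counts. Within PARP2 WT, Parp1 was at 251 CPM in library 1 but at 155 CPM in library 2. A set of 9 monocyte and macrophage markers summed to 3660 to 4333 CPM over the 8 libraries and 9 neutrophil markers to 2619 to 3338 CPM, and Ly6g was not analysed here. B cell markers summed to 29.5 to 43.0 CPM in the 4 libraries of the PARP1 line and to 8.15 to 11.4 CPM in the 4 of the PARP2 line. In bulk RNA, fewer cells of a type and less RNA per cell cannot be told apart.

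Of the integrins, Itgb2 (CD18) is the common beta chain of the leukocyte-restricted family. It pairs with Itgam (CD11b) in Mac-1, the complement and fibrinogen receptor of neutrophils and macrophages, with Itgal (CD11a) in LFA-1, the receptor for ICAMs, and with Itgax (CD11c), which is best known from dendritic cells. Itga4 pairs with Itgb1 in VLA-4, which binds VCAM-1 and fibronectin, and with Itgb7 in the gut-homing receptor for MAdCAM-1. Itga5 with Itgb1 is the classical fibronectin receptor, and Itgav with Itgb5 binds vitronectin. Chains without a partner are retained inside the cell, so the mRNA of a beta chain and that of its alpha chains are set side by side below.

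Positions are those of GENCODE M21 on mm10, the build to which the authors aligned. Itgam lies on the + strand at chr7:128062640-128118491, and Itgax starts 11.055 kb after its end, at chr7:128129547-128150657. Itgal is on the same chromosome at chr7:127296260-127335138, 0.728 Mb before Itgam. Itgb2 is at chr10:77530252-77565708. Itga4, at chr2:79255426-79333123, and Itgav, at chr2:83724397-83806916, are 4.391 Mb apart. Itgb7, at chr15:102215995-102231944, and Itga5, at chr15:103344286-103366763, are both on the - strand. Itgb1 is at chr8:128685654-128733200 and Itgb5 at chr16:33829665-33949338. Counting was by gene over exons.

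Some of these exons are shared with other gene models. Of the 75-base words in the transcripts of Itgam, 65.2% also occur in the overlapping model Gm49368 on the same strand, so that how the counting treated that model bears on the level of Itgam. For Itgax, 5.01% of words are shared with its paralogue Itgad, which had 1 to 9 counts in a library. For Itga4, 6.94% are shared with the antisense gene Cerkl, which had 21 to 46 counts. Further words are shared by Itgav with the antisense Gm13684 (5.14%), by Itgb5 with Gm38317 (6.48%) and by Itgb2 with Gm14699 (0.21%). Gm49368, Gm13684, Gm38317 and Gm14699 were not analysed here. The other members shared none.

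The sequences just upstream of 4 start sites are printed because they belong to the neighbouring pair Itgam and Itgax, the most and the least abundant of the alpha chains per kb of exon, and to Itga4 and Itgav, whose mRNAs had the lowest fold changes between the control lines. Each is the 250 bases before the RefSeq start, on the + strand of GRCm38.p6. Capitals mark the letters GAGGAA, a core bound by Ets-family factors such as PU.1, with its reverse complement TTCCTC, or the letters TGAGTCA, which AP-1 binds.
Itgam, chr7:128062390-128062639: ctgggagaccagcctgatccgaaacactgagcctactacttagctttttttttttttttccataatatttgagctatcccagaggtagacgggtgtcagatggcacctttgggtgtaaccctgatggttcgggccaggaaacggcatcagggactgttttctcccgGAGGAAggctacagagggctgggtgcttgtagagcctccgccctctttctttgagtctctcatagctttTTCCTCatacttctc
Itgax, chr7:128129300-128129549: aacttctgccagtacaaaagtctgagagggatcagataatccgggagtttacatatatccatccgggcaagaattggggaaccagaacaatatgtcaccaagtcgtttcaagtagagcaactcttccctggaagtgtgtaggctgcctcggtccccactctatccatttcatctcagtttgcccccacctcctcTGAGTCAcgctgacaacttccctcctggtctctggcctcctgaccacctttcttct
Itga4, chr2:79255176-79255425: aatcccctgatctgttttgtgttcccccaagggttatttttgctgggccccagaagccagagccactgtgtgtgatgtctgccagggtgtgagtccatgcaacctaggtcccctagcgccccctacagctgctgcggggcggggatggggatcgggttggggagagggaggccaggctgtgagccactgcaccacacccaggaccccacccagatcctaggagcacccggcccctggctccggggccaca
Itgav, chr2:83724147-83724396: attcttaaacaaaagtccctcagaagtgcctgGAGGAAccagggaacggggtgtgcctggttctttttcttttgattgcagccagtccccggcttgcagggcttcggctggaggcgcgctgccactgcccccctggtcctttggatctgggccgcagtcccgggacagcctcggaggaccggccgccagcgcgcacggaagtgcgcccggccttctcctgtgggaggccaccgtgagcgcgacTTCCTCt
Itgam and Itgav had 2 matches to GAGGAA each, Itgax had 1 match to TGAGTCA, and the Itga4 window held neither. G and C made up 49.6% of the Itgam window, 64.0% of that of Itga4 and 64.4% of that of Itgav. Searched on both strands, GAGGAA occurred in 23.3% of 32851 RefSeq windows of this length and in 4 of the 8 members with a window (Itgam, Itga5, Itgav and Itgb1). TGAGTCA occurred in 4.46% of the windows and, of the members, in Itgax. These matches describe the letters of the windows.

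Per kb of exon, the integrin mRNAs spanned from 313 CPM per kb for Itgb2 to 4.51 CPM per kb for Itgax as means over 8 libraries. Itgb2 was first in each library, at 291 to 348 CPM per kb. Itgam averaged 188 CPM per kb (175 to 206) and Itgb1 176 CPM per kb (163 to 186). Their ranges overlap, and Itgam was above Itgb1 in 7 of 8 libraries.

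The middle of the order was held by Itga5 at a mean of 30.2 CPM per kb (26.1 to 33.3), Itgb7 at 28.4 (24.5 to 33.1) and Itgb5 at 27.8 (24.2 to 34.0). Among these 3, neighbours in the order did not stand apart: Itga5 exceeded Itgb7 in 5 libraries, and Itgb7 exceeded Itgb5 in 4. Below them came Itga4 at 13.1 CPM per kb (9.48 to 16.9) and Itgal at 11.6 (10.9 to 13.2), with Itga4 above Itgal in 5 libraries. Itgav at 7.72 CPM per kb (6.40 to 9.24) and Itgax at 4.51 (2.88 to 6.08) closed the order without overlap. Itga4 ranked 7 in the PARP1 line and in PARP2 WT library 1, and 8, below Itgal, in PARP2 WT library 2 and both PARP2CKO libraries. These ranks depend on the length: per kb of the longest transcript, Itga4 was below Itgal in PARP2CKO library 1 alone, and Itgb5 and Itgb7 changed places in the mean order. The deepest gap in the order, between Itgb1 and Itga5, separated the chains of Mac-1 and the common beta 1 chain from the other 7.

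**Figure D1:**
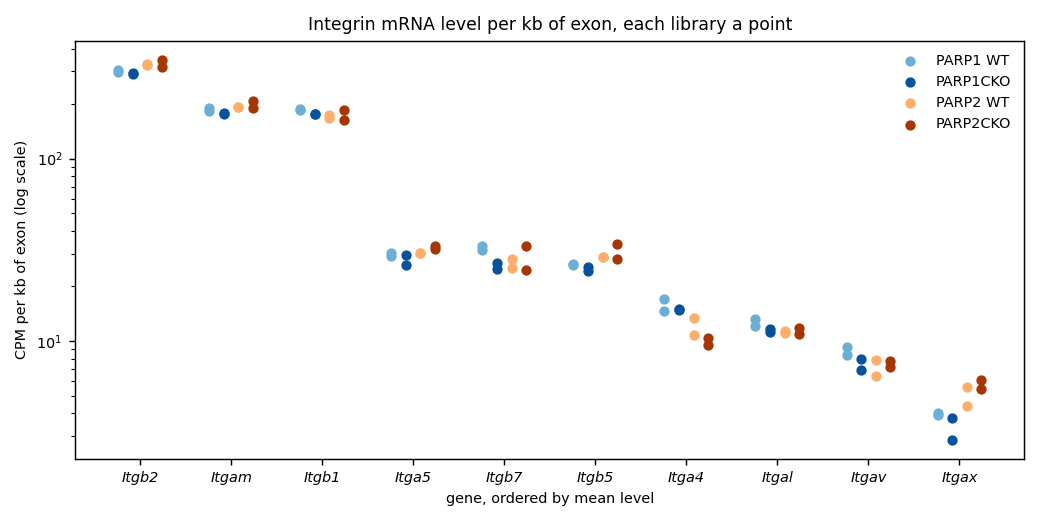
Level of each integrin mRNA in CPM per kb of exon on a log axis, each point 1 of the 8 libraries coloured by group, genes ordered by their mean. Itgb2, Itgam and Itgb1 sit above 160 CPM per kb, the other 7 genes at or below 34.0, and with this length Itga4 falls below Itgal in 3 libraries of the PARP2 line, against 1 library with the longest transcript.

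Itgam, the chain whose protein the cells are named by, stood at 910.0 and 956 CPM in PARP1 WT and at 881 and 896 CPM in PARP1CKO. In the PARP2 line it stood at 967 and 959.8 CPM in PARP2 WT and at 1035 and 954 CPM in PARP2CKO. Both PARP1CKO libraries were thus the lowest of the 8, and the PARP2CKO libraries lay on either side of their controls. The log2 fold change was -0.07 in PARP1CKO (SE 0.0515, 95% interval -0.19 to 0.05, edgeR adjusted p = 0.629), with -0.11 without PARP1 WT library 1 and -0.04 without PARP1 WT library 2. It was 0.05 in PARP2CKO (SE 0.0514, -0.07 to 0.16, edgeR adjusted p = 0.971). Neither passed the threshold of 0.05, and the intervals reached no further than 0.19 from 0 on the log2 scale.

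Its beta chain Itgb2 followed a like course. It stood at 927 and 912 CPM in PARP1 WT and at 895 and 889 CPM in PARP1CKO, and at 994 and 1003 CPM in PARP2 WT against 1062 and 970.0 CPM in PARP2CKO. The log2 fold change was -0.04 in PARP1CKO (SE 0.0506, interval -0.16 to 0.07, edgeR adjusted p = 0.772). In PARP2CKO it was 0.03 (SE 0.0505, -0.09 to 0.14, edgeR adjusted p = 0.978), with overlapping libraries. Across the 8 libraries, which share 2 lines and their preparation, the log2 CPM of Itgam and Itgb2 had a Pearson correlation of 0.90, given as a description.

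Itgal, the alpha chain of LFA-1, stood at 79.0 and 86.4 CPM in PARP1 WT and at 73.1 and 76.1 CPM in PARP1CKO. In PARP2 WT it stood at 72.5 and 74.1 CPM and in PARP2CKO at 77.3 and 71.4 CPM. The PARP1 WT libraries were the upper end, and the other groups shared a range. Its log2 fold change in PARP1CKO was -0.15 (SE 0.0562, interval -0.28 to -0.02, edgeR p before adjustment 0.0257, adjusted p = 0.381), with -0.22 without PARP1 WT library 1 and -0.09 without PARP1 WT library 2. In PARP2CKO it was 0.02 (SE 0.0558, -0.11 to 0.15, edgeR adjusted p = 0.985).

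Itgax was the lowest member and, relative to its level, varied most. It stood at 18.8 and 19.3 CPM in PARP1 WT, at 13.8 and 18.1 CPM in PARP1CKO, at 27.0 and 21.0 CPM in PARP2 WT and at 29.2 and 26.3 CPM in PARP2CKO. All 4 libraries of the PARP2 line were above all 4 of the PARP1 line. The log2 fold change was -0.26 in PARP1CKO (SE 0.145, interval -0.59 to 0.07, edgeR adjusted p = 0.519), and PARP1CKO library 1 alone carried most of it, since it was -0.08 without that library and -0.46 without PARP1CKO library 2. In PARP2CKO it was 0.21 (SE 0.136, -0.10 to 0.52, edgeR adjusted p = 0.954), and 0.04 without PARP2 WT library 2 and 0.40 without PARP2 WT library 1. Markers of dendritic cells, which carry CD11c, summed to 25.1 and 27.6 CPM in PARP1 WT, at 20.3 and 26.8 CPM in PARP1CKO, 15.4 and 20.4 CPM in PARP2 WT and at 13.8 and 17.4 CPM in PARP2CKO. Between the control groups they were lower in PARP2 WT, the group with more Itgax, and their part in the values of Itgax was not tested.

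The beta 2 chain and its alpha chains kept a steady ratio. Per kb, Itgb2 exceeded the sum of Itgal, Itgam and Itgax by 1.44 to 1.59 times over the 8 libraries. As log2 ratios the group means were 0.58 in PARP1 WT, 0.61 in PARP1CKO, 0.65 in PARP2 WT and 0.63 in PARP2CKO. Within that sum, Itgam made up 91.7% to 92.6%, Itgal 5.25% to 6.34% and Itgax 1.52% to 2.71%. At the level of mRNA, the beta 2 partners in these cultures were thus almost entirely those of Mac-1.

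**Figure D2:**
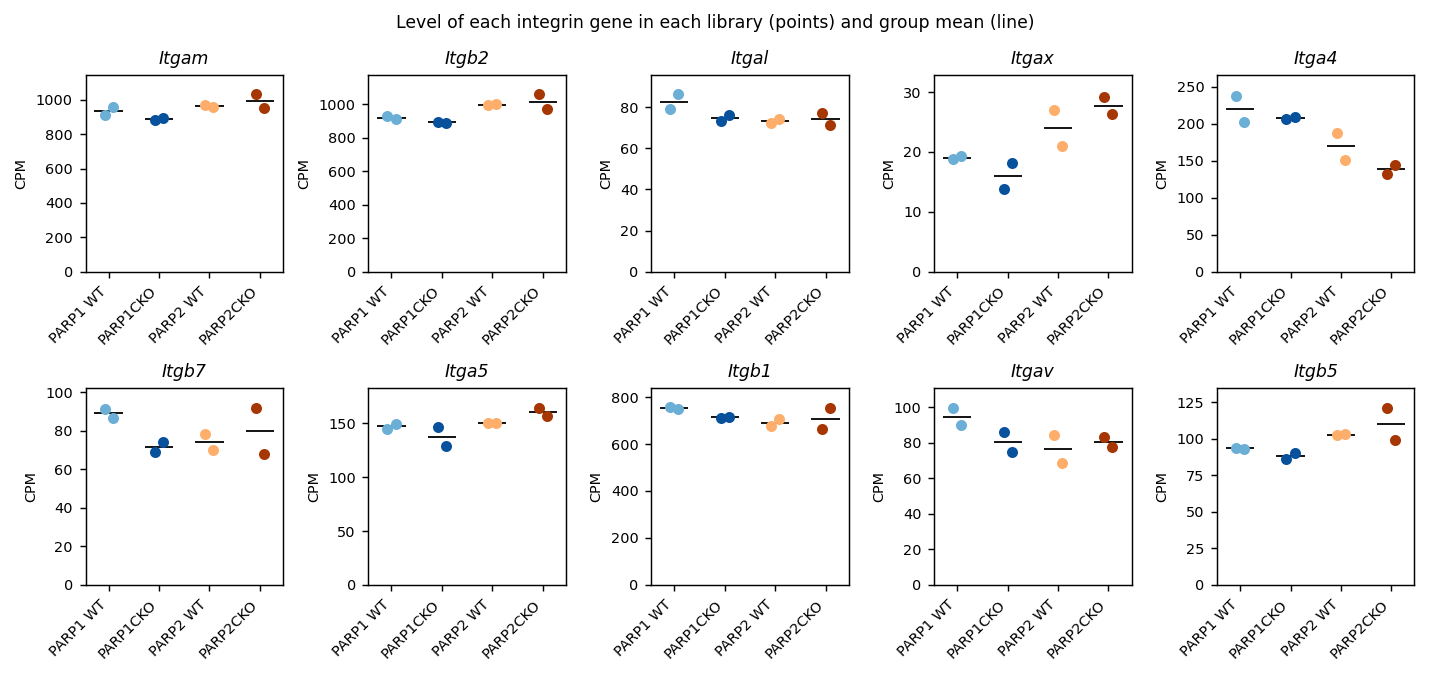
CPM of each of the 10 integrin genes in each of the 8 libraries, 1 panel per gene, with a point per library and a line at the group mean. Itga4 is at 203 to 237 CPM in the PARP1 line, at 187 and 151 CPM in PARP2 WT and at 132 and 144 CPM in PARP2CKO. Itgam and Itgb2 stay between 881 and 1062 CPM.

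Itga4, which mediates rolling and arrest of progenitors and monocytes on VCAM-1, showed the largest spread between groups, relative to its level, among the members above 100 CPM. It stood at 237 and 203 CPM in PARP1 WT and at 206 and 209 CPM in PARP1CKO. In the PARP2 line it stood at 187 and 151 CPM in PARP2 WT and at 132 and 144 CPM in PARP2CKO. The highest library of the PARP2 line was below the lowest of the PARP1 line, and both PARP2CKO libraries were below both of their controls.

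The log2 fold change of Itga4 in PARP2CKO was -0.29 (SE 0.101, interval -0.52 to -0.06, edgeR p before adjustment 0.0186, adjusted p = 0.888), and it did not pass the threshold. It depended on which control was used: it was -0.43 without PARP2 WT library 2 and -0.13 without PARP2 WT library 1. In PARP1CKO it was -0.08 (SE 0.100, interval -0.31 to 0.14, edgeR adjusted p = 0.782), and 0.03 without PARP1 WT library 1.

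Itgb7, the gut-homing partner of Itga4, stood at 91.4 and 86.9 CPM in PARP1 WT and at 68.9 and 74.1 CPM in PARP1CKO. In PARP2 WT it stood at 78.3 and 69.9 CPM and in PARP2CKO at 91.8 and 68.0 CPM. PARP1CKO lay below its controls with a clear gap, whereas the PARP2CKO libraries enclosed theirs. The log2 fold change in PARP1CKO, -0.32, was the lowest among the members in that comparison (SE 0.120, interval -0.59 to -0.05, edgeR p before adjustment 0.0268, adjusted p = 0.382). In PARP2CKO it was 0.11 (SE 0.119, -0.16 to 0.38, edgeR adjusted p = 0.968) and turned to -0.13 without PARP2CKO library 1.

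Itga5, the fibronectin-receptor chain, stood at 144 and 149.6 CPM in PARP1 WT and at 146 and 129 CPM in PARP1CKO. It stood at 150.1 and 150.4 CPM in PARP2 WT and at 164 and 157 CPM in PARP2CKO, the one member whose PARP2CKO libraries were both above both controls. The log2 fold changes were -0.10 in PARP1CKO (SE 0.0594, interval -0.23 to 0.04, edgeR adjusted p = 0.563) and 0.10 in PARP2CKO (SE 0.0589, interval -0.04 to 0.23, edgeR adjusted p = 0.954). The first was -0.01 without PARP1CKO library 2 and -0.19 without PARP1CKO library 1, and the second was 0.06 without PARP2CKO library 1.

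Itgb1, the beta chain shared by most alpha chains, stood at 758 and 749 CPM in PARP1 WT, at 712 and 717 CPM in PARP1CKO, 677 and 706 CPM in PARP2 WT and at 664 and 752 CPM in PARP2CKO. PARP1CKO was below its controls by less than the gap between the PARP2CKO duplicates. The log2 fold changes were -0.08 in PARP1CKO (SE 0.0595, interval -0.21 to 0.06, edgeR adjusted p = 0.648) and 0.03 in PARP2CKO (SE 0.0594, interval -0.10 to 0.17, edgeR adjusted p = 0.978).

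Itgav, the alpha chain of the vitronectin receptor, stood at 99.2 and 89.9 CPM in PARP1 WT, at 85.9 and 74.6 CPM in PARP1CKO, 84.2 and 68.8 CPM in PARP2 WT and at 83.3 and 77.3 CPM in PARP2CKO. Its log2 fold change was -0.23 in PARP1CKO (SE 0.101, interval -0.46 to -0.01, edgeR p before adjustment 0.0457, adjusted p = 0.434) and -0.14 without PARP1CKO library 2. In PARP2CKO it was 0.07 (SE 0.101, -0.16 to 0.30, edgeR adjusted p = 0.977). PARP1 WT was thus the group with the most Itgav, above all 6 other libraries.

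Itgb5 stood at 93.8 and 93.2 CPM in PARP1 WT, at 85.9 and 90.5 CPM in PARP1CKO, 102.5 and 103.0 CPM in PARP2 WT and at 121 and 99.3 CPM in PARP2CKO. All 4 libraries of the PARP2 line were above all 4 of the PARP1 line. The log2 fold changes were -0.08 in PARP1CKO (SE 0.0789, interval -0.26 to 0.10, edgeR adjusted p = 0.711, and -0.05 without PARP1CKO library 1) and 0.10 in PARP2CKO (SE 0.0777, interval -0.08 to 0.28, edgeR adjusted p = 0.954).

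Set against their alpha partners, the other beta chains were less uniform than Itgb2 from library to library. The group means of Itgb1 lay closer together than those of Itgb2. Itgb1 exceeded the sum of Itga4, Itga5 and Itgav per kb by 3.21 to 3.74 times, without its other partners such as Itga6 in the sum, with group means of the log2 ratio from 1.76 to 1.80. The ratio of Itgb7 to Itga4 ranged from 1.69 to 3.50 times. Its group means on the log2 scale were 1.04 in PARP1 WT, 0.80 in PARP1CKO, 1.15 in PARP2 WT and 1.53 in PARP2CKO, and PARP2CKO held both libraries with the highest ratios, 1.81 and 1.25. The ratio of Itgb5 to Itgav was 2.86 to 4.53 times, with log2 means of 1.58 and 1.74 in PARP1 WT and PARP1CKO and of 2.03 and 2.04 in PARP2 WT and PARP2CKO. No test was made of these ratios.

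**Figure D3:**
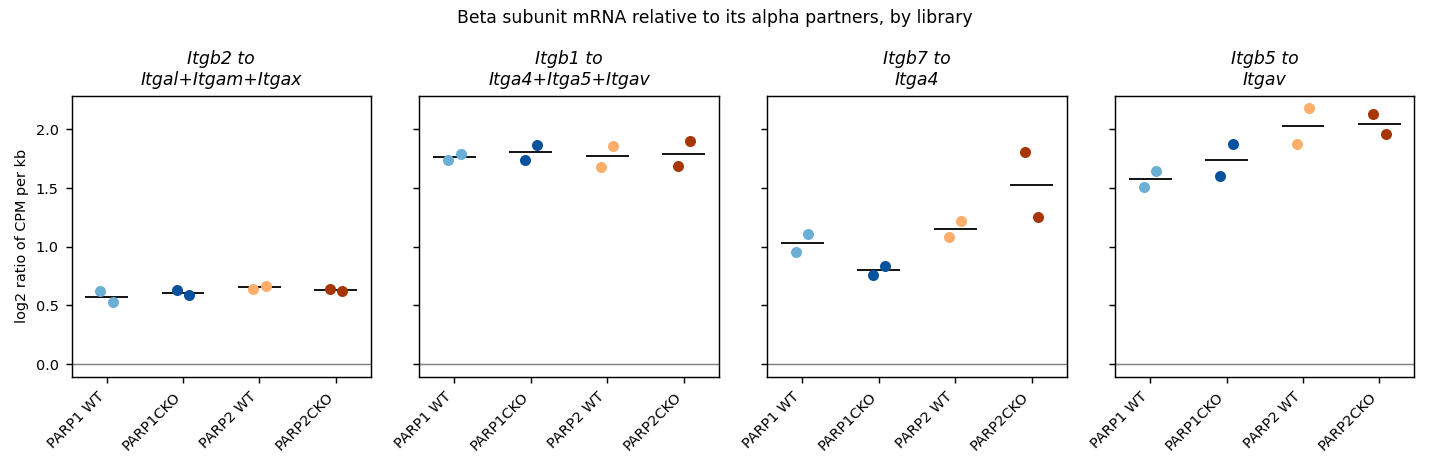
Log2 ratio of the beta chain's CPM per kb to that of its alpha partners, a point per library and a line at the group mean, in 4 panels. The Itgb2 panel spans 0.53 to 0.67, and the Itgb7 panel spans 0.76 to 1.81, with PARP2CKO library 1 at the top.

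Taken over the members, PARP1CKO against PARP1 WT gave no integrin past the adjusted threshold, where 0.106% of all tested genes passed it (14 of 13197). DESeq2 and edgeR's likelihood-ratio test called 0 of the 10 as well. Itgal, Itgb7 and Itgav had an unadjusted p under 0.05, which is 3 of 10 beside 11.3% of all genes. All 10 log2 fold changes were below 0, from -0.32 for Itgb7 to -0.04 for Itgb2, beside 47.9% of all genes below 0. In 8 of the 10 both PARP1CKO libraries were below both PARP1 WT libraries, beside 20.2% of all genes lower in this way and 21% higher, and Itga4 and Itga5 were the exceptions. The median was -0.09, beside 0.01 for all genes, whose middle part ran from -0.07 to 0.09. The 10 genes were read from the same libraries, so that they are not 10 separate observations of the comparison. Among cell-type markers, none past the threshold here, all 6 tested B cell markers, all 3 tested erythroid markers, all 3 tested T and NK cell markers and 7 of 9 monocyte and macrophage markers were above 0, with medians of 0.27, 0.83, 0.45 and 0.07. All 4 tested stromal markers (median -0.44), 6 of 7 dendritic cell markers (median -0.14) and 5 of 6 mast cell and basophil markers (median -0.10) were below 0. The B cell markers summed to 29.5 and 34.5 CPM in PARP1 WT against 30.9 and 43.0 CPM in PARP1CKO, and their part in the integrin values was not tested. Among the tested genes, 89.2% had a log2 fold change no larger in size than that of Itgb7.

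In PARP2CKO against PARP2 WT no integrin passed the threshold either, where 0.053% of all genes passed (7 of 13197), and DESeq2 and the likelihood-ratio test again called 0 of the 10. Itga4 had an unadjusted p under 0.05, 1 of 10 beside 4.83% of all genes. Itga4 was the single member below 0, where 50.7% of all genes were, and the other 9 lay between 0.02 and 0.21. Non-overlapping libraries were found for Itga4, lower, beside 18.8% of all genes, and for Itga5, higher, beside 18.4%. The members' median was 0.06 and that of all genes -0.001. For 7 of the 9 members above 0, leaving out a single library gave a value below 0, the exceptions being Itgax and Itga5. In this comparison 8 of 9 neutrophil markers were below 0 and 6 of 9 monocyte and macrophage markers above 0, and all 6 mast cell and basophil markers (median -0.36) and all 3 tested T and NK cell markers (median -0.39) were below 0. None of these markers passed the threshold, and their part in the integrin values was not tested.

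**Figure D4:**
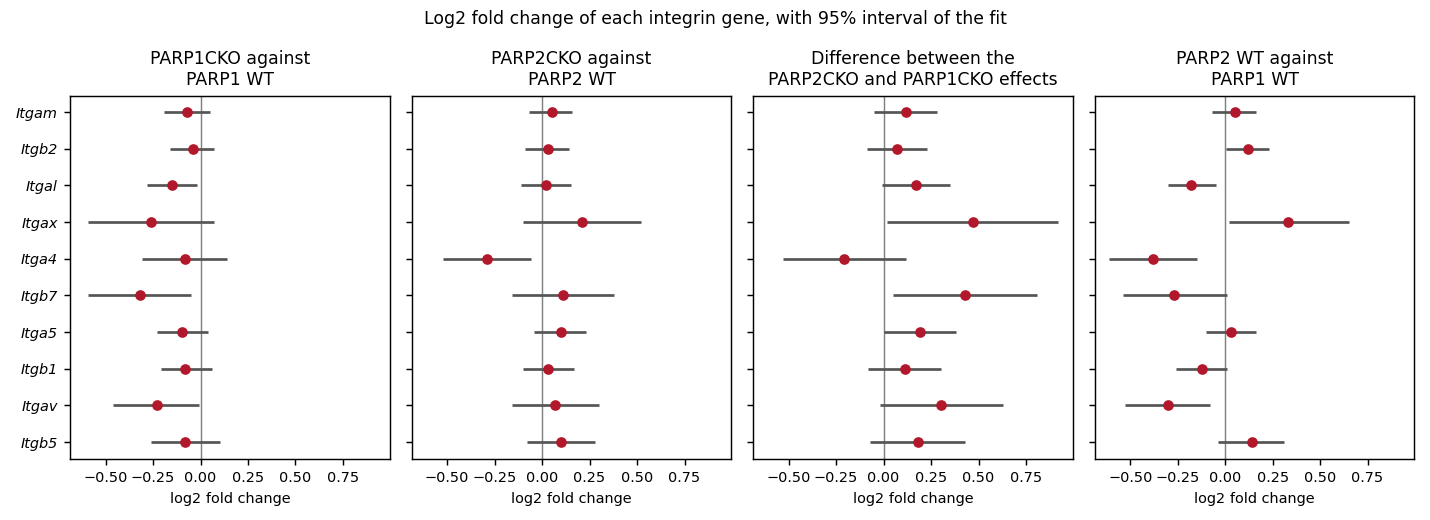
Log2 fold change of each integrin gene in 4 panels, 1 for each comparison, with its 95% interval from the edgeR model over 8 libraries. In PARP1CKO all 10 points lie between -0.32 and -0.04, in PARP2CKO 9 lie above 0, and Itga4 has the lowest point, -0.38, between the control lines.

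The difference between the deletions was tested as an interaction, the PARP2CKO effect minus the PARP1CKO effect. No integrin passed, where 0.0152% of all genes did (2 of 13197), and DESeq2 and the likelihood-ratio test called 0 of the 10. Unadjusted p-values under 0.05 were found for Itgax, Itgb7 and Itga5, 3 of 10 beside 7.69% of all genes. The difference was 0.47 for Itgax (SE 0.198, interval 0.02 to 0.92, edgeR adjusted p = 0.637). For Itgb7 it was 0.43 (SE 0.169, interval 0.05 to 0.81, edgeR adjusted p = 0.616), and for Itga5 0.19 (SE 0.0837, edgeR adjusted p = 0.642). Next by p-value came Itgal with 0.17 (SE 0.0792, interval -0.01 to 0.35, edgeR adjusted p = 0.657). Itgav came after it with 0.30 (SE 0.142, interval -0.02 to 0.63, edgeR adjusted p = 0.666). Itga4 alone had a difference below 0, -0.21, with an edgeR adjusted p of 0.760. Single libraries moved these differences: with 1 left out they ranged from 0.28 to 0.67 for Itgax (lowest without PARP1CKO library 1, highest without PARP1CKO library 2) and from 0.19 to 0.63 for Itgb7 (without PARP2CKO library 1 and library 2). For Itga5 the range was 0.11 to 0.29 (without PARP1CKO library 2 and library 1), and for Itgav 0.17 to 0.46 and for Itga4 -0.34 to -0.05 (lower end without PARP2 WT library 2, upper end without library 1). The chains of Mac-1 differed least, Itgam by 0.12 (edgeR adjusted p = 0.747) and Itgb2 by 0.07 (edgeR adjusted p = 0.835), together with Itgb1 at 0.11 (edgeR adjusted p = 0.777). Without PARP2CKO library 1 Itgam was at 0.06, Itgb2 at 0.002, Itgb1 at 0.20 and Itgb5 at 0.03, and without PARP2CKO library 2 they were at 0.17, 0.13, 0.02 and 0.32. Itgal ranged from 0.11 without PARP1 WT library 2 to 0.24 without PARP1 WT library 1. Among cell-type markers in this difference, 8 of 9 of neutrophils (median -0.22), all 6 of mast cells and basophils (median -0.22), all 3 tested of T and NK cells (median -0.87), all 3 tested of erythroid cells (median -1.07) and 5 of 6 tested of B cells (median -0.29) were below 0. None passed the threshold, and their part in the integrin values was not tested.

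The control lines, PARP2 WT against PARP1 WT, stood further apart. This comparison uses the control libraries of both deletions. No integrin passed the edgeR threshold, where 3.16% of all genes did (417 of 13197), and 5 of 10 had an unadjusted p under 0.05, beside 18.9% of all genes. In all 10 the libraries of the lines did not overlap: 5 members were lower in PARP2 WT, beside 25.2% of all genes, and 5 were higher, beside 26.7%. Log2 fold changes below 0 were found for 5 members and for 49.6% of all genes.

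Itga4 had the lowest value, -0.38 (SE 0.101, interval -0.61 to -0.15, edgeR adjusted p = 0.0902). Over the alternatives its adjusted p ran from 0.00108 to 0.378. It was 0.00999 by the likelihood-ratio test, 0.00108 by DESeq2 and 0.00708 in edgeR without a filter on low counts. Itgav, at -0.30 (SE 0.101, interval -0.53 to -0.08, edgeR adjusted p = 0.153), passed with an adjusted p of 0.0323 by DESeq2, 0.0359 in edgeR without the filter and 0.0266 in edgeR with the replicate number as a block. Both values depended on PARP2 WT library 2. Without it Itga4 was -0.24 and Itgav -0.17, and without library 1 they were -0.54, with an edgeR adjusted p of 0.0400, and -0.46.

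Itgb7 at -0.27 (SE 0.119, edgeR adjusted p = 0.272), Itgal at -0.18 (SE 0.0560, edgeR adjusted p = 0.141) and Itgb1 at -0.12 (SE 0.0595, edgeR adjusted p = 0.303) were the other members lower in PARP2 WT. Those higher were Itgax at 0.33 (SE 0.140, edgeR adjusted p = 0.242), Itgb5 at 0.14 (SE 0.0783, edgeR adjusted p = 0.392) and Itgb2 at 0.12 (SE 0.0505, edgeR adjusted p = 0.249). Itgam at 0.05 and Itga5 at 0.03 moved least, with edgeR adjusted p of 0.676 and 0.824. They were at 0.01 and 0.01 without PARP1 WT library 1 and at 0.08 and 0.06 without PARP1 WT library 2. Itgax was 0.14 without PARP2 WT library 1 and 0.50 without library 2, and Itgal was -0.11 without PARP1 WT library 2. Within the beta 2 family, Itgam, Itgax and the shared chain Itgb2 were thus above 0 and Itgal, the alpha chain of LFA-1, below 0, none past the edgeR threshold.

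Markers of other cell types moved with this comparison. All 6 B cell markers that passed the filter were lower in PARP2 WT by edgeR's adjusted test, with a median log2 fold change of -1.84. Summed, they stood at 34.5 and 29.5 CPM in PARP1 WT and at 11.4 and 9.42 CPM in PARP2 WT. All 6 mast cell and basophil markers were below 0, none past the threshold. By the same test the macrophage marker Mertk rose and the neutrophil marker Retnlg fell. The part of these shifts in the integrin values was not tested, and the floxed allele, the mouse cohort and the day of culture cannot be told apart between the lines.

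Beyond the members, 12 of the 16 other integrin chains passed the filter. None was called in any comparison by edgeR's quasi-likelihood test or by DESeq2. Unadjusted p-values under 0.05 numbered 0 of 12 in PARP1CKO, PARP2CKO and their difference, beside 11.3%, 4.83% and 7.69% of all genes. Between the control lines they numbered 2 of 12, beside 18.9% of all genes, and the likelihood-ratio test called 1 of these 2. Itgb3, which pairs with Itgav on osteoclasts and with Itga2b on platelets, was at 24.1 CPM per kb of union exon and Itga6 at 21.3, whereas per kb of the longest transcript Itgb3 was at 24.6 and Itga6 at 44.7. Itgb3 had a log2 fold change of -0.10 in PARP1CKO and of -0.12 in PARP2CKO. The widest values of this list came from scarce chains: Itga3 (18 to 50 counts a library) ran from 0.64 in PARP1CKO to -0.48 in PARP2CKO, with a difference of -1.13 (edgeR adjusted p = 0.654), and Itga7, at 0.0181 CPM per kb and 4 to 10 counts, was at 1.09 in PARP2CKO and at -0.71 between the controls. The lowest in PARP1CKO was Itga10 at -0.29, and the highest between the controls was Itga8 at 0.34. Itga6, the laminin-receptor chain and a partner of Itgb1, stood at 265 and 225 CPM in PARP1 WT, at 222 and 208 CPM in PARP1CKO, 195 and 139 CPM in PARP2 WT and at 146 and 141 CPM in PARP2CKO. Like Itga4, Itga6 was lower in every library of the PARP2 line than in any of the PARP1 line, with a log2 fold change of -0.55 between the controls (SE 0.135, edgeR adjusted p = 0.0699).

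Of 36 genes of the integrin activation and adhesion machinery, 34 passed the filter. They include talin and kindlin, which switch integrins on, and the kinases and adaptors that link them to actin. In PARP1CKO, PARP2CKO and the difference 0 were called by edgeR or DESeq2, where edgeR called 0.106%, 0.053% and 0.0152% of all genes. Of the 34, 6, 1 and 2 had an unadjusted p under 0.05, beside 11.3%, 4.83% and 7.69% of all genes. The medians of the list were -0.04, 0.01 and 0.04. Tln1, the talin of leukocytes, had a log2 fold change of -0.10 in PARP1CKO (SE 0.0439, edgeR adjusted p = 0.430). Fermt3, the kindlin of blood cells, had 0.08 (SE 0.0405, edgeR adjusted p = 0.486). The most abundant gene of this list was Flna (filamin A), which cross-links actin, at 222 CPM per kb, and the scarcest of the 34 that passed the filter was Fermt2, at 0.0260 CPM per kb and 0 to 18 counts. Fermt2 also gave the extremes, at -0.67 in PARP1CKO and 0.91 in PARP2CKO. At the other end stood Tln2 at 0.45 in PARP1CKO and Fgr, a kinase of the Src family, at -0.16 in PARP2CKO, neither past the test. Between the controls Parvg, an adaptor of the integrin-linked kinase complex in blood cells, fell by 0.41 on the log2 scale (SE 0.0556, edgeR adjusted p = 0.00737). Parvg stood at 120.4 and 111 CPM in PARP1 WT, at 97.8 and 106 CPM in PARP1CKO, 89.6 and 85.1 CPM in PARP2 WT and at 78.9 and 78.8 CPM in PARP2CKO. Within the lines it was lower in both deletions without passing the test, at -0.18 (edgeR adjusted p = 0.297) and -0.15 (edgeR adjusted p = 0.937).

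Integrin ligands made by the cultures themselves were counted too, and 15 of 23 passed the filter. None was called in PARP1CKO, PARP2CKO or their difference by edgeR. Of the 15, 1, 1 and 2 had an unadjusted p under 0.05, beside 11.3%, 4.83% and 7.69% of all genes. DESeq2 called 1 in PARP1CKO, Spp1, which is named after its value was seen. Spp1 (osteopontin), a ligand of Itgav and Itga4 chains, was the most abundant at 1633 CPM per kb. Its log2 fold change was -0.22 in PARP1CKO (SE 0.0680, edgeR adjusted p = 0.300) and 0.05 in PARP2CKO (SE 0.0679, edgeR adjusted p = 0.977). Fn1 (fibronectin), the ligand of Itga5 with Itgb1, stood at 4.11 and 4.82 CPM in PARP1 WT, at 4.14 and 4.31 CPM in PARP1CKO, 7.94 and 7.46 CPM in PARP2 WT and at 8.30 and 8.16 CPM in PARP2CKO. Fn1 was the ligand that rose between the controls, by 0.78 (SE 0.105, edgeR adjusted p = 0.00703). The values lowest and highest in the deletions were, in PARP1CKO, Col1a1 at -0.44 and Mfge8 at 0.29 and, in PARP2CKO, Col1a1 at -0.37 and Icam4 at 0.66, none past the test. Mfge8 encodes a bridge from dying cells to Itgav integrins. The lowest between the controls was Cdh1 at -0.62, and the scarcest of the 15 that passed the filter was Jam2 at 0.0386 CPM per kb. Icam1, the ligand of LFA-1 and Mac-1, stood at 39.4 to 46.4 CPM over the 8 libraries and had a log2 fold change of 0.06 in PARP1CKO and 0.09 in PARP2CKO. Vtn, Fga, Fgb and Fgg, the vitronectin and fibrinogen genes expressed by liver, had no count in any library.

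**Figure D5:**
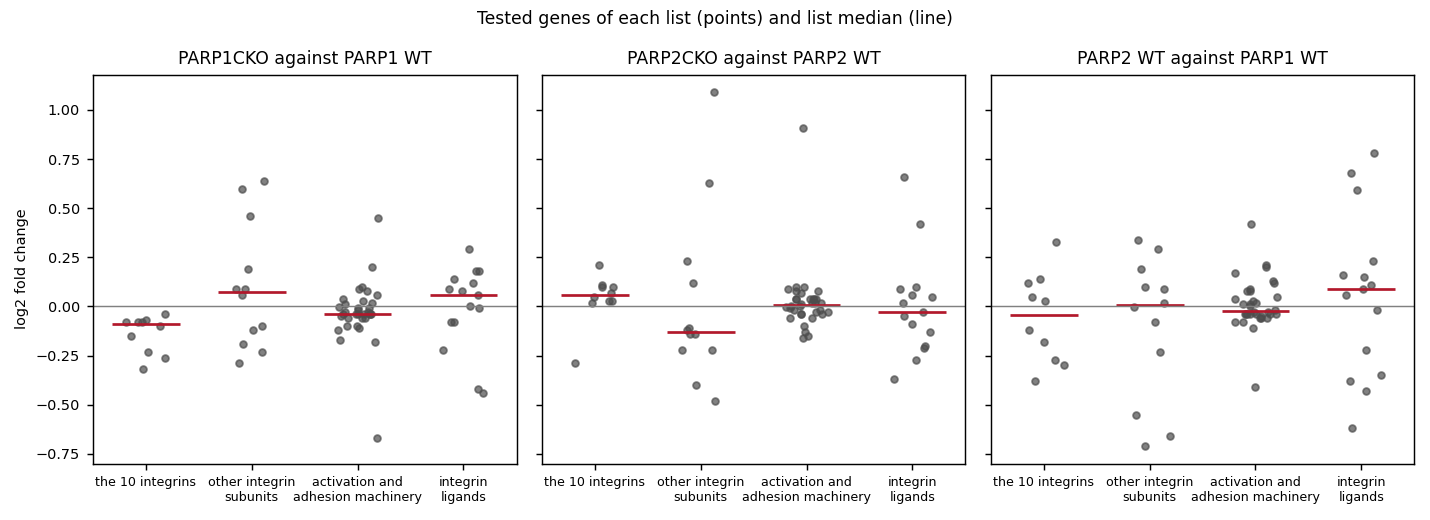
Log2 fold change of the genes of the member, other integrin, machinery and ligand lists in each deletion and between the control lines, each point a gene that passed the filter and each line the median. Parvg and Fn1, both between the control lines, are the genes of these lists past the adjusted threshold.

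By profile over the 8 libraries, the genes most like Itgam were Irak2 (Pearson correlation of log2 CPM 0.995), Rnf150 (0.970), Slc29a3 (0.960), Cad (0.954) and Nup50 (0.953). Among members the closest pairs were Itgb2 with Itgb5 at 0.96 and Itgam with Itgb5 at 0.95, and the most opposed were Itgb2 and Itga4 at -0.83. These are descriptions over 8 libraries that share 2 lines and their preparation. Neighbouring genes gave a further description. Within 1 Mb of Itgav, 0 of 10 tested neighbours were called by edgeR between the controls, 6 of them were below 0, and their median was -0.04. Itga4 had 2 tested neighbours, with 0 called and a median of -0.07 between the controls. In PARP2CKO those 2 were below 0 with a median of -0.33 and 0 called, and the median for Itgav was 0.05. Other members had called neighbours between the controls, such as 3 of 84 for Itgal and 2 of 54 for Itgam, beside 3.16% of all genes.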

How the data were processed

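Total RNA (4 µg) was made into strand-preserving libraries and read as single 75-base ends. The authors trimmed the reads, aligned them to mm10 with TopHat2 2.0.12, handled them with Picard 1.127 and FastQC 0.11.2, and deposited raw counts per gene from featureCounts; the annotation, the strand setting and the removal of duplicates are not given in the sources used here. The counts were analysed in R 4.3.3 with edgeR 4.0.16: filterByExpr, TMM factors (0.965 to 1.03), 1 mean per group over all 8 libraries, the quasi-likelihood test, and Benjamini-Hochberg adjustment over 13197 genes at 0.05. CPM is from these libraries and CPM per kb divides by the union exon length. Each deletion was compared with its own control group, the deletion effects with each other, and the control groups with each other. Libraries held 37852450 to 61845125 counts, and duplicates differed by more than sampling noise (chi-square per gene 8.69 to 13.1). P-values measure the spread between these libraries.

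Members and lists were chosen with earlier results of these data known. Named genes were all members, the deleted genes, list genes past the threshold or else with the highest and lowest fold change, the most and least abundant of each list, and the 5 profiles closest to Itgam; Itga6, Tln1, Fermt3 and Icam1 were named after their values were seen. Emr1 and Siglec5 were read as Adgre1 and Siglecf through RefSeq synonyms. Alternatives were the likelihood-ratio test, DESeq2 1.42.0, other scalings and filters, 4-library fits, a replicate block and leaving out each library.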

Additional observations from a re-analysis of the deposited data

Results flagged for a closer look

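No integrin differed between the deletions past the threshold. Parp2, the gene deleted in PARP2CKO, did: its log2 fold change in PARP2CKO minus that in PARP1CKO was -0.82 (edgeR quasi-likelihood test of the interaction, adjusted p = 0.00634, and 2.95e-18 to 0.0325 over the alternatives).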

How the results depend on the processing

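Of 630 integrin values under the alternatives, 612 kept their direction and side of the threshold, 7 passed it and 11 changed direction, 8 of these with a library left out. In PARP1CKO, PARP2CKO and their difference no alternative called an integrin. Between the control lines 1 integrin was called by the likelihood-ratio test, 2 by DESeq2, 2 without a filter, 1 with the replicate block (Itgav, -0.31, edgeR adjusted p = 0.0266) and 0 to 1 with a library left out. With scaling by library size only, Itgb2 was -0.001 and Itgal -0.01 in PARP2CKO and Itga5 was -0.01 between the control lines. That scaling shifts all genes alike. Their median under it was -0.03 in PARP2CKO and -0.04 between the control lines, against -0.001 and 0.001 in the main fit. With a library left out, Itga4 ranged from -0.20 to 0.03 in PARP1CKO. In PARP2CKO the ranges were -0.01 to 0.10 for Itgam, -0.04 to 0.09 for Itgb2, -0.04 to 0.08 for Itgal, -0.13 to 0.31 for Itgb7, -0.06 to 0.12 for Itgb1, -0.07 to 0.22 for Itgav and -0.05 to 0.23 for Itgb5. Parp1 ranged from -0.41 to 0.28 between the control lines. Over all genes the calls numbered 14 in PARP1CKO, 7 in PARP2CKO, 2 for the difference and 417 between the control lines. They were 146, 39, 72 and 910 by the likelihood-ratio test, 86, 27, 46 and 551 by DESeq2, and 101, 26, 61 and 872 without a filter. With a library left out they ranged from 1 to 34, 4 to 19, 1 to 16 and 85 to 566. The cause was not tested.

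The replicate numbers were shared by the groups, but the 2 pairs of a line do not show that a number marks shared material: the deviations of equal numbers correlated at -0.133 in the PARP1 line and 0.147 in the PARP2 line. With the replicate block the calls over all genes were 14, 6, 3 and 315, and with the numbers of PARP1CKO crossed, an alternative chosen after seeing the data, 18 in PARP1CKO. With 2 libraries a group, the intervals of Itgax reach 0.59 from 0 on the log2 scale in PARP1CKO, 0.65 between the control lines and 0.92 for the difference. By the longest transcript in place of union exons, the log2 ratio of Itgb7 to Itga4 had group means of 0.33 to 1.06.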
